A study of Homo sapiens with 3 samples.

Results

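The 5 genes HNRNPL, RNLS, HSPB1, CARTPT and LOC646736 lay nearest to the strongest MEIS1 peaks of CWR22Rv1-LV-MEIS1 cells, and every peak that the deposited annotation assigned to them is described here. The 5 genes were selected on measured values, because each had the nearest start site to 1 of the first 5 LV-MEIS1 peaks by fold enrichment, so the height of those 5 peaks is a description and not a finding. The annotation assigned 23 of the 5968 LV-MEIS1 peaks and 7 of the 2047 HOXB13ko-LV-MEIS1 peaks to these genes. By pileup alone the same 5 peaks ranked 4, 11, 13, 19 and 23 of 5968, so they are the strongest by enrichment over background and not by height.

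CWR-22Rv1 is an established human prostate carcinoma line that was derived from a relapsed xenograft. LV-MEIS1 cells carried exogenous MEIS1 from a lentiviral vector and kept their own HOXB13. HOXB13ko-LV-MEIS1 cells carried the same vector after HOXB13 had been deleted with CRISPR/Cas9, in a pool re-combined from several knockout clones, and also expressed Cas9. Both lines were grown in serum with puromycin and fixed 48 h after seeding, chromatin was immunoprecipitated with 1 antibody against MEIS1, and libraries were sequenced as single-end reads of 50 bp. Before peaks were called, the 3 LV-MEIS1 immunoprecipitations were merged, and so were the 2 from HOXB13ko-LV-MEIS1 cells, so each site has 1 value per line and no replicate error. The headers of both peak lists name the same input, whereas the methods of the study speak of input specific to each line, so the background and fold enrichment of HOXB13ko-LV-MEIS1 peaks are relative to that 1 input. The pools held 202428594 and 105763683 tags and the input 39102495.

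MEIS1 is a homeodomain protein of the TALE class that binds DNA alone or beside HOX and PBX proteins, and its preferred sequence has TGACA at its core. HOXB13 is the HOX protein typical of prostate epithelium, and its preferred sites hold the letters ATAAA or a close variant. A protein bound in chromatin leaves a local pile of immunoprecipitated reads, and the gene with the nearest transcription start site is a label for such a place and not proof of which gene it serves.

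The sequences under the 5 strongest LV-MEIS1 summits, and under a further CARTPT site in which both words abut, show what these places hold. Each is the hg38 plus strand from 50 bp before to 50 bp after the summit, in lower case with TGACA or ATAAA in capitals wherever it stands on either strand (TGTCA and TTTAT are the same words read from the other strand). In the order printed they are chr19:38862734-38862834, chr10:88440155-88440255, chr7:76294766-76294866, chr5:71653231-71653331, chr2:226379493-226379593 and chr5:71715070-71715170.
HNRNPL, 10445 bp upstream: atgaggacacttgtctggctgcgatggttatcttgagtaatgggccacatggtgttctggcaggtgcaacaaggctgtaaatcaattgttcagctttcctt
RNLS, 143120 bp downstream: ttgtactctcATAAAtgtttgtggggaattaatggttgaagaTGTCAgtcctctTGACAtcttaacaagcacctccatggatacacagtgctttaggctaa
HSPB1, 7742 bp upstream: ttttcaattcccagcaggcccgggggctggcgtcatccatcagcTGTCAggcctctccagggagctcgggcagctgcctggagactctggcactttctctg
CARTPT, 65882 bp upstream: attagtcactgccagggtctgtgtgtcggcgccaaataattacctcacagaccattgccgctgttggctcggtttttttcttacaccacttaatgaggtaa
LOC646736, 236749 bp downstream: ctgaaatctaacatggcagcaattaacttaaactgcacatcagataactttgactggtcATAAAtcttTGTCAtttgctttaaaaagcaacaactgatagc
CARTPT, 4043 bp upstream: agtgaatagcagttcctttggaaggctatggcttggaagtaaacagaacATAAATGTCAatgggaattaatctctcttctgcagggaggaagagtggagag
The strongest HNRNPL and CARTPT windows held neither word. The RNLS window held TGACA on both strands, from 8 to 4 bp before the summit and from 4 to 8 bp after it. The HSPB1 window held it from 6 to 2 bp before the summit, and followed by G on its own strand. In the LOC646736 window ATAAA and TGACA were separated by 4 bp, and in the last CARTPT window they touched.

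Signal is given as pileup, the number of reads, each extended to 200 bp, that covered the summit after the pool had been scaled down to the size of the input. Dividing by the scale factors of 0.193 and 0.370 returned whole reads for 100.0% of peaks in both lists, within 0.05 of a read, and 95% Poisson intervals were taken from these reads and cover counting error only. Fold enrichment is pileup over local background, with 1 added to both. The lowest background possible was 2.896 reads, the average of the input over the genome.

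HNRNPL encodes heterogeneous nuclear ribonucleoprotein L, an RNA-binding protein that regulates splicing. Its strongest peak, chr19:38862483-38863018, was intergenic, 10445 bp upstream of the annotated start site, in an LTR35A element, a long terminal repeat of the ERV1 class of endogenous retroviruses. Its pileup was 73.60 (interval 66.4 to 81.4) from 381 reads, its fold enrichment of 19.1 was the first of the LV-MEIS1 list, and its background was 2.897. In HOXB13ko-LV-MEIS1 cells a peak lay with its summit 1 bp away, with a pileup of 48.80 (40.8 to 57.9) from 132 reads and a fold enrichment of 12.8, ranked 42 of 2047 by fold enrichment and 198 by pileup. This place was thus listed in both lines. It was chosen for its LV-MEIS1 value and each line has 1 pooled value, so the difference in pileup was not tested. By GENCODE release 44 it lay between HNRNPL, 10437 bp away, and RINL, of the Ras and Rab interactor family, 5046 bp away. The other HNRNPL peak, chr19:38850567-38850774, was listed in LV-MEIS1 cells only, at 700 bp upstream of the annotated start site and called a promoter peak, with a pileup of 21.83 and a fold enrichment of 5.33. GENCODE, whose outermost HNRNPL start lies 1670 bp from this summit, places it in an intron of the gene.

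RNLS encodes renalase, a secreted flavoprotein oxidase. All 5 of its LV-MEIS1 peaks lay inside the gene, which spans 310667 bp, and 4 of them lay in intron 4 of 6. The strongest, chr10:88439809-88440430, lay in that intron 143120 bp downstream of the start site, in a MamTip2 DNA transposon, with a pileup of 71.86 (64.7 to 79.5) from 372 reads and a fold enrichment of 18.7, the second of the list. The others were found at 42059, 133776, 196901 and 236517 bp, the last in intron 5, with pileups of 28.01, 28.20, 36.12 and 38.44. The summit at 133776 bp lay in an L2c element. Both neighbours of the strongest site were lower in pileup, which follows from the choice of that site for its high value. No RNLS peak was listed in HOXB13ko-LV-MEIS1 cells, where the nearest summit to the strongest site was 5922876 bp away and assigned to NOC3L. The lowest pileup of any HOXB13ko-LV-MEIS1 peak at the genome-wide background was 14.79, and the list gives no value for a place below the threshold, so no ratio between the lines could be formed for RNLS. LIPJ, a gene of the lipase family, began 146548 bp from the strongest site.

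HSPB1 encodes Hsp27, a small heat shock protein that keeps damaged proteins from aggregating. Its strongest peak, chr7:76294573-76295038, was intergenic and 7742 bp upstream, outside annotated repeats, with a pileup of 71.66 (64.6 to 79.3) from 371 reads and a fold enrichment of 18.6, the third of the list. It lay between SRRM3, which ended 7528 bp away, and HSPB1. In HOXB13ko-LV-MEIS1 cells the summit was 1 bp away, with a pileup of 32.90 (26.4 to 40.5) from 89 reads and a rank of 263 by fold enrichment and 618 by pileup. Around the gene itself the lists held different places. LV-MEIS1 cells had peaks 114 bp upstream, 4733 bp downstream and 11769 bp downstream of the start site, with pileups of 22.79, 18.93 and 20.86. HOXB13ko-LV-MEIS1 cells had peaks 440 bp downstream, in exon 1 of 3, and 2790 bp downstream, with pileups of 23.29 and 19.23. These 5 peaks had fold enrichments from 4.05 to 5.61 and none of them overlapped a peak of the other line. Lack of overlap was the usual case, since 7.66% of all LV-MEIS1 peaks and 22.3% of all HOXB13ko-LV-MEIS1 peaks were overlapped. The promoter summit of LV-MEIS1 cells and the exon 1 summit of HOXB13ko-LV-MEIS1 cells were 554 bp apart, and local background there was 4.00 and 5.00 reads, above the genome-wide level.

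CARTPT encodes the precursor of the cocaine- and amphetamine-regulated transcript peptides, which act on appetite. It had 8 LV-MEIS1 peaks, 4 upstream and 4 downstream of a gene of 1774 bp, none of them in it or at its promoter. The strongest, chr5:71653036-71653522, lay 65882 bp upstream in intron 16 of 16 of MCCC2, which encodes a subunit of methylcrotonyl-CoA carboxylase of leucine breakdown. Its pileup was 68.38 (61.4 to 75.9) from 354 reads and its fold enrichment of 17.8 was the fourth of the list. GENCODE shows an exon at this summit, but of a retained-intron transcript of MCCC2 and not of a coding one. The next, chr5:71714940-71715309, was intergenic and 4043 bp upstream, with a pileup of 52.54 (46.5 to 59.2) and a fold enrichment of 13.7, ranked 91. These were also the CARTPT sites listed in HOXB13ko-LV-MEIS1 cells, with pileups of 35.12 (28.4 to 42.9) and 22.92 (17.6 to 29.4) and ranks of 205 and 869 by fold enrichment. Downstream, 3 LV-MEIS1 peaks formed a cluster of 5094 bp at 29507, 30779 and 33748 bp, with pileups of 31.10, 34.96 and 31.10 and widths of 646, 550 and 768 bp. The median width over the list was 279 bp, and the cluster was not listed in HOXB13ko-LV-MEIS1 cells. The remaining peaks lay 55462 bp upstream in an AluJb element, 23304 bp upstream in a MIRb element and 187210 bp downstream, with pileups of 27.24, 23.57 and 23.18. MCCC2 itself had a peak in intron 8 of 16, which was 20938 bp from the strongest CARTPT site and had a pileup of 28.59.

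LOC646736 is a transcribed locus annotated as non-coding RNA, and GENCODE release 44 has no gene of this name. Its strongest peak, chr2:226379310-226379782, was intergenic, outside annotated repeats and 236749 bp downstream of its start site, with a pileup of 69.93 (62.9 to 77.5) from 362 reads and a fold enrichment of 17.7, the fifth of the list. Of the 5 strongest sites it had the highest background, 3.0 reads, and no other LV-MEIS1 peak within 100 kb. In HOXB13ko-LV-MEIS1 cells the summit was 6 bp away with a pileup of 47.69 (39.8 to 56.7) from 129 reads, ranked 60 by fold enrichment and 212 by pileup. The protein-coding gene with the nearest start site was IRS1, the adaptor of the insulin receptor, at 420277 bp. The other LV-MEIS1 peaks lay 111198 bp upstream, 23460 bp upstream and, in an L2c element in intron 4 of 6 of the locus, 24935 bp downstream, with pileups of 28.20, 20.28 and 23.37. None of these was listed in HOXB13ko-LV-MEIS1 cells.

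**Figure D1:**
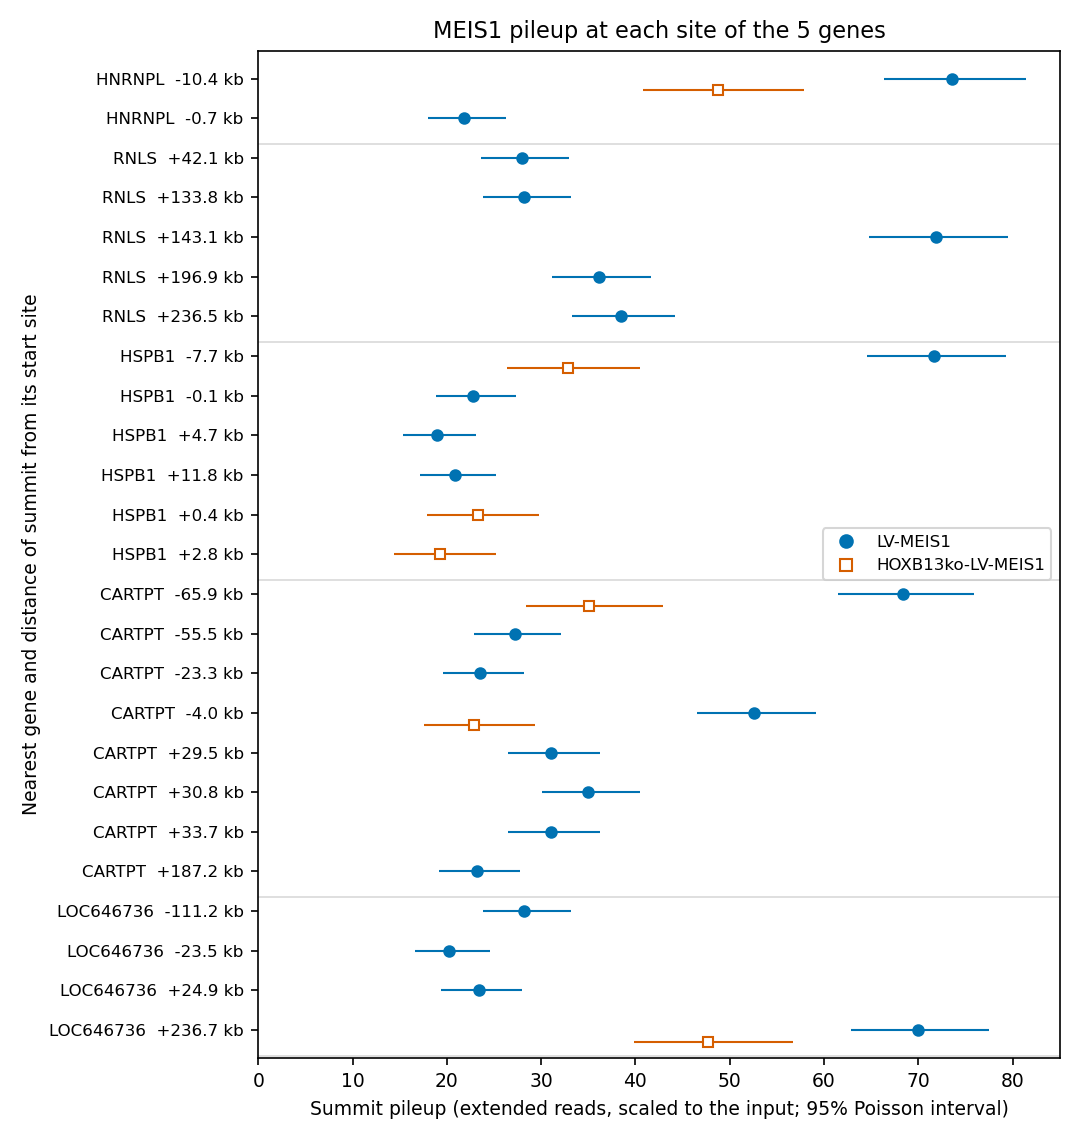
Summit pileup (horizontal axis, extended reads scaled to the input) of every site of the 5 genes, labelled by the distance of its summit from the start site, with 95% Poisson intervals; circles are LV-MEIS1 cells and open squares HOXB13ko-LV-MEIS1 cells, drawn on the same line where peaks of both overlap. The 5 strongest LV-MEIS1 sites lie between 68.38 and 73.60, the CARTPT site 4.0 kb upstream at 52.54, and all other LV-MEIS1 sites at or below 38.44.

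**Figure D2:**
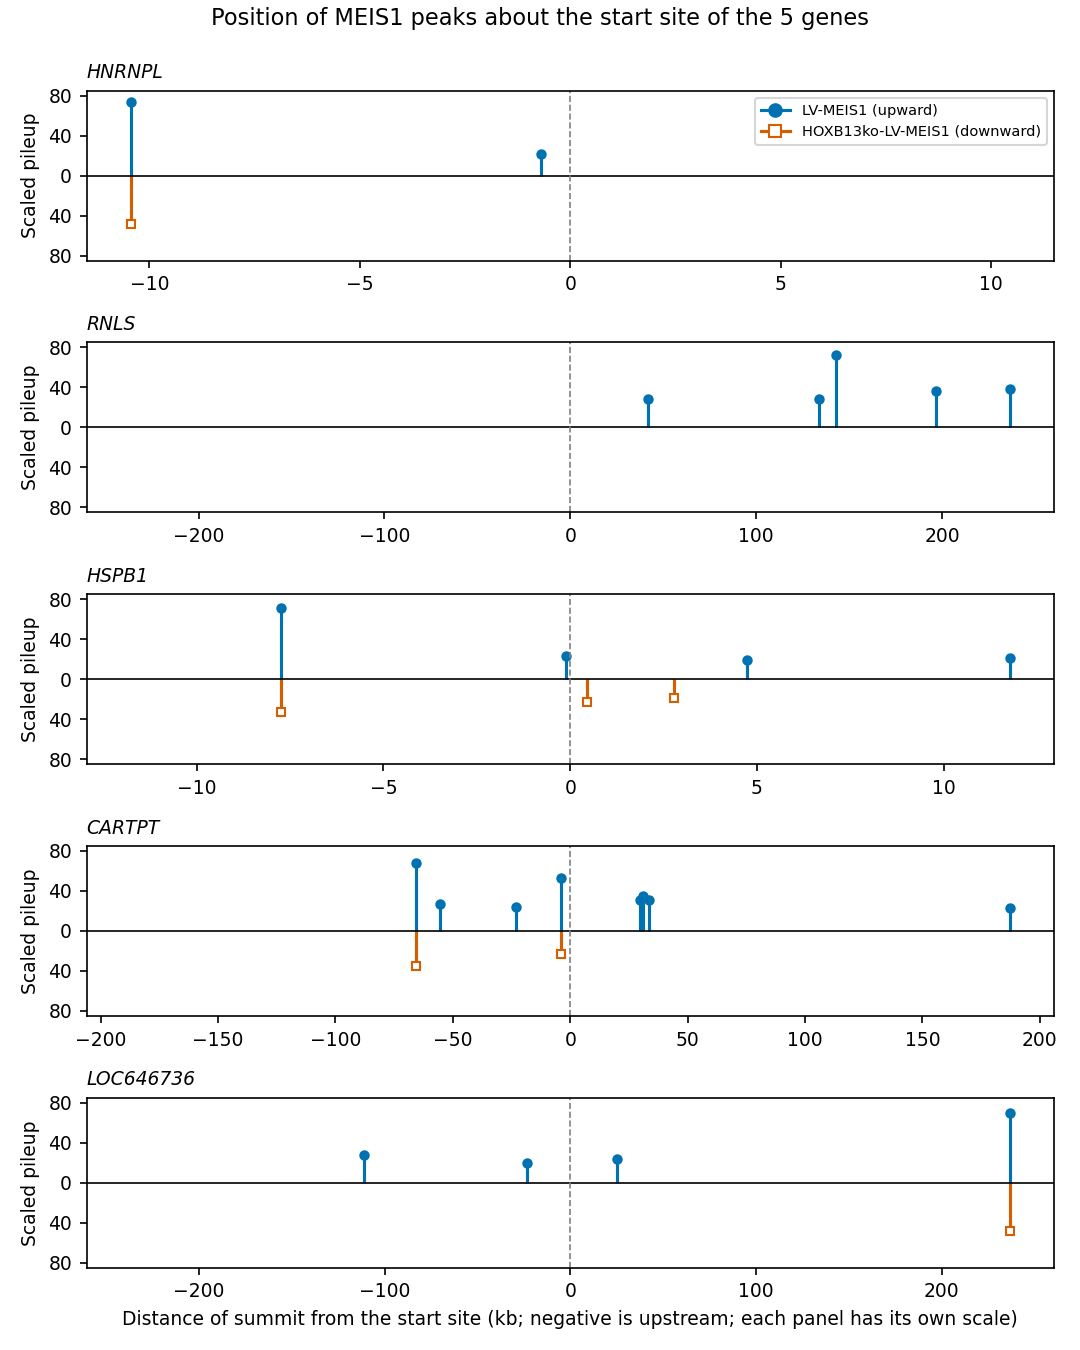
Position of the sites about the start site of each gene (horizontal axis in kb, upstream to the left, 1 scale per panel) with LV-MEIS1 pileup drawn upward and HOXB13ko-LV-MEIS1 pileup downward. RNLS sites lie downstream only and have no HOXB13ko-LV-MEIS1 counterpart, and the CARTPT sites lie on both sides of the start.

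Across genes, the 5 strongest sites were close to each other in height. This follows from their choice as the first 5 by fold enrichment, at backgrounds from 2.896 to 3.0 reads. The intervals of the 5 sites all overlapped, and their order was not tested. The other 18 sites had pileups from 18.93 to 52.54 with a median of 27.6, beside 28.4 over all LV-MEIS1 peaks, and a median fold enrichment of 6.63, beside 6.17. Apart from the site that placed each gene in this set, the peaks of these genes had a median close to that of the list.

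Taller peaks existed in the list but stood on more background, a quantity that is part of the value the 5 were chosen on. Background was below 2.9 reads at 4 of them and 3.0 at LOC646736. The 18 LV-MEIS1 peaks that reached at least the pileup of the strongest CARTPT site but were assigned to other genes had backgrounds from 3.40 to 8.0 reads (median 5.01) and fold enrichments from 8.57 to 16.4. By fold enrichment the peaks just outside the set were assigned to COBL, with 17.7, and IL11RA, with 17.5. By pileup the peaks just below the strongest CARTPT site were assigned to LRMDA, MIR8066 and LINC00992, all at 68.19.

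**Figure D3:**
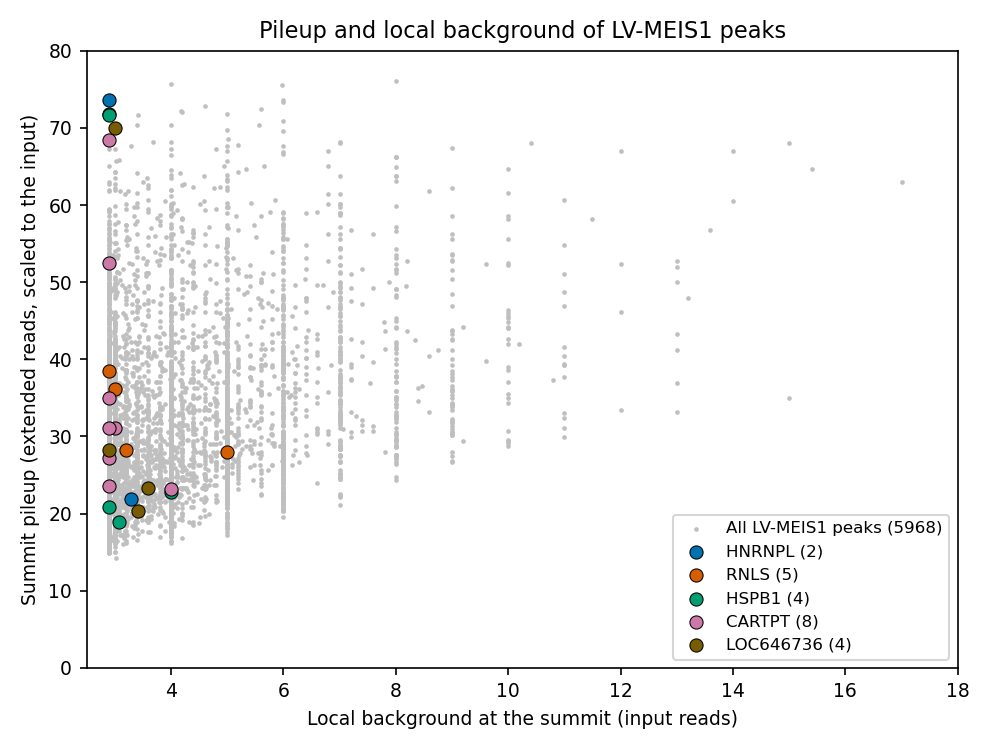
Summit pileup against local background, in reads, for all 5968 LV-MEIS1 peaks (grey) and the sites of the 5 genes (coloured). The 5 strongest sites sit at the top of the left edge, where background is lowest, and the RNLS point at 71.86 is hidden under the HSPB1 point at 71.66.

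The genes differed in how many peaks they drew. In LV-MEIS1 cells 74.3% of the 4158 gene names had 1 peak. CARTPT had 8, a number that 14 gene names (0.337%) reached or passed, RNLS had 5 (89 names, 2.14%), HSPB1 and LOC646736 had 4 each (168 names, 4.04%) and HNRNPL had 2 (1070 names, 25.7%). Each count includes the peak that placed its gene in this set. A gene with more peaks also had more chances to enter it. The shares of gene names are therefore not a like comparison. In HOXB13ko-LV-MEIS1 cells HSPB1 had 3, as 67 of 1619 gene names had or passed, CARTPT had 2, and HNRNPL and LOC646736 had 1 each. In position, 14 of the 23 LV-MEIS1 sites were intergenic (37.0% of all peaks), 7 intronic (38.0%) and 2 at promoters (20.2%). The median distance from the start site was 30779 bp, beside 23121 bp over the list, and 7 sites (30.4%) were beyond 100 kb, beside 21.7%. Annotated repeats held 6 sites (26.1%), beside 19.5% of the list.

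The knockout line allows the question whether MEIS1 was found at the same places without HOXB13. Of the 23 LV-MEIS1 sites, 5 were overlapped by a HOXB13ko-LV-MEIS1 peak, beside 7.66% of all LV-MEIS1 peaks. The most enriched peaks of the list were overlapped far more often, at 61.0% of the 100 with the highest fold enrichment. Of the 5 strongest sites of these genes 4 were overlapped, all but RNLS. RNLS is 1 of 39 among those 100 that were not. Among the other 18 sites, only the CARTPT site 4043 bp upstream was overlapped. The 17 remaining LV-MEIS1 sites without a counterpart had pileups from 18.93 to 38.44. In the opposite direction, 5 of the 7 HOXB13ko-LV-MEIS1 sites were overlapped by an LV-MEIS1 peak, beside 22.3% of that list, and the exceptions were HSPB1 exon 1 and the site 2790 bp downstream. By gene name, 4 of the 5 genes had a HOXB13ko-LV-MEIS1 peak, beside 16.4% of all LV-MEIS1 gene names. The genes were chosen for strong LV-MEIS1 peaks, which were overlapped more often, so neither 22.3% nor 16.4% is a like comparison.

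At the 5 overlapping places the pileup was lower in HOXB13ko-LV-MEIS1 cells each time. The ratio of HOXB13ko-LV-MEIS1 to LV-MEIS1 pileup was 0.682 (95% interval of the read counts 0.553 to 0.836) at LOC646736 and 0.663 (0.540 to 0.810) at HNRNPL. It was 0.514 (0.405 to 0.646) and 0.436 (0.326 to 0.577) at the CARTPT sites 65882 and 4043 bp upstream, and 0.459 (0.360 to 0.580) at HSPB1. All 5 intervals lay below 1, but they cover counting error only, within 1 pool per line. Whether a ratio differed from 1, or from another ratio, was not tested. The plan had left pileups uncompared between lists and gave the different scale factors as its reason, so these ratios depart from it. Both factors bring a pool to the size of the same input, so depth is taken into account. The efficiency of immunoprecipitation in each line is not known and is not taken into account. Over all 457 overlapping pairs the median ratio was 0.713, with 71.1% below 1. Among the 61 pairs within the 100 LV-MEIS1 peaks of highest fold enrichment the median was 0.514, with 60 below 1. The ratios of these genes lay inside the range of those 61, 0.322 to 1.11. The sites were chosen for high values in LV-MEIS1 cells and the ratio over all pairs was below 1 as well, so the direction is given as a description of these lists.

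**Figure D4:**
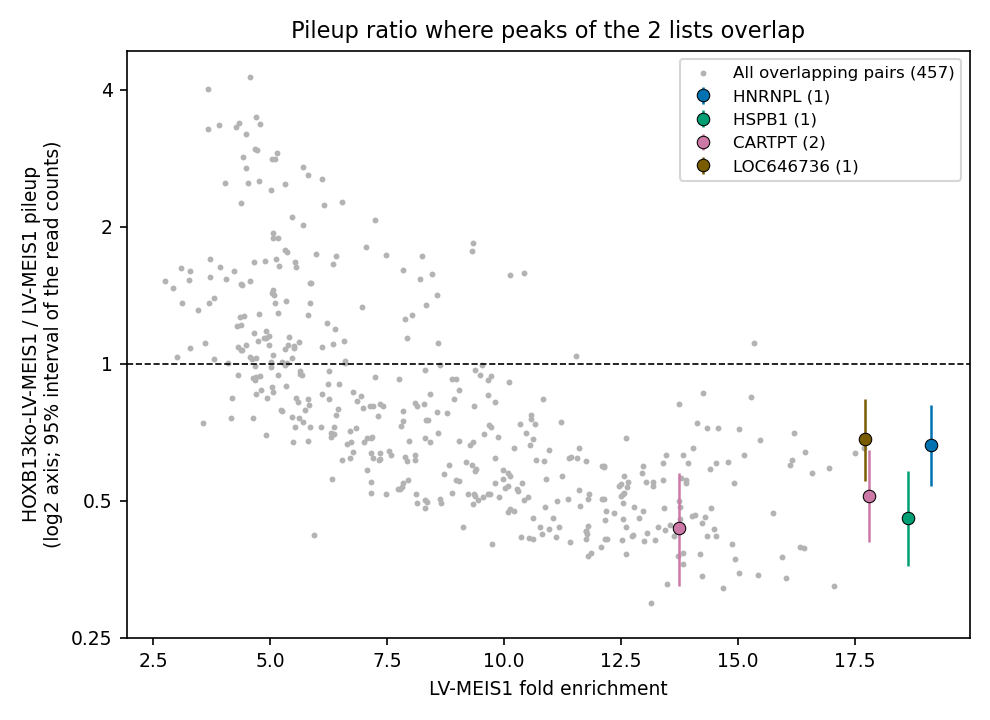
Ratio of HOXB13ko-LV-MEIS1 to LV-MEIS1 pileup (vertical axis, log2 scale) against LV-MEIS1 fold enrichment for the 457 overlapping pairs (grey) and the 5 pairs of these genes (coloured, with 95% intervals of the read counts). The 5 ratios run from 0.436 to 0.682, below the dashed line of equal pileup and among the grey points of high fold enrichment.

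Summits coincided closely where both lines had a peak. The shift was 1 bp at HNRNPL and HSPB1, 4 bp at the nearer CARTPT site and 6 bp at LOC646736. The median was 27.0 bp over the 457 pairs and 8.0 bp within the 100 LV-MEIS1 peaks of highest fold enrichment. The strongest CARTPT site was the exception, with summits 57 bp apart. Its HOXB13ko-LV-MEIS1 summit had ATAAA 7 to 3 bp before it. This word began at the last base of the window about the LV-MEIS1 summit and so was not counted there. It lay within the LV-MEIS1 peak.

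In sequence, TGACA on either strand stood within 50 bp of 14 of the 23 LV-MEIS1 summits, beside 56.1% of 5967 LV-MEIS1 windows. Of the 5 strongest sites 3 held TGACA, beside 60.0% of the 100 LV-MEIS1 peaks of highest fold enrichment. By gene, TGACA was found at 5 of 5 RNLS sites, 4 of 4 LOC646736 sites, 2 of 4 HSPB1 sites, 1 of 2 HNRNPL sites and 2 of 8 CARTPT sites. The 3 peaks of the downstream CARTPT cluster had none. The longer word TGACAG, each match of which is also a match of TGACA, stood at 7 sites, beside 30.5%. Among the 5 strongest it stood at 1, HSPB1, beside 38.0% of those 100 peaks. ATAAA stood at 9 sites, beside 45.8%, and at 2 of the 5 strongest, RNLS and LOC646736, beside 63.0% of those 100 peaks. Both words together stood at 6 sites, beside 24.2%. Windows in which the words were at most 4 bp apart made up 6.20% of the list, and those in which they touched or overlapped 2.33%, as in the printed LOC646736 and CARTPT windows.

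Sites with and without a HOXB13ko-LV-MEIS1 counterpart both held TGACA. It stood at 3 of the 5 overlapped sites, beside 53.7% of all overlapped LV-MEIS1 peaks. It also stood at 11 of the 18 that were not overlapped, beside 56.1% of all LV-MEIS1 windows. Those 11 include the RNLS site with the word on both sides of its summit. Of the 7 HOXB13ko-LV-MEIS1 windows 4 held TGACA, beside 16.8% of that list and 41.8% of its peaks overlapped by an LV-MEIS1 peak, and 3 held ATAAA, beside 13.0% and 31.4%. The other words searched on both strands were TGATTGAC, a composite of PBX and MEIS1 at no LV-MEIS1 site of these genes (1.71% of the list), TTTACG, also at none (2.23%), and TGTTTAC, at 4 sites (8.71%). A match describes these letters only, and no match says nothing of which protein was present.

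Relatives of the coding genes were counted from lists of gene names, beside the share of all 20056 protein-coding RefSeq genes that had a peak, which was 15.1% in LV-MEIS1 cells, 5.79% in HOXB13ko-LV-MEIS1 cells and 2.29% in both. HNRNPL, HSPB1 and CARTPT were chosen for their peaks, so the counts without them are given too. Of 20 genes for heterogeneous nuclear ribonucleoproteins, 5 had an LV-MEIS1 peak, 2 a HOXB13ko-LV-MEIS1 peak and 1, HNRNPL, both, and of the 19 without HNRNPL the numbers were 4, 1 and 0. The tallest outside HNRNPL was at the promoter of HNRNPLL, its closest paralog, 546 bp upstream, with a pileup of 42.11 and a fold enrichment of 10.9. HNRNPD had 2 peaks and HNRNPK and HNRNPM 1 each, with pileups from 18.16 to 29.36, and HNRNPU had a HOXB13ko-LV-MEIS1 peak only, with 20.70. The HNRNPD peak of 18.16 was at the promoter, and that of 29.36 was intergenic, 89064 bp downstream. The HNRNPK and HNRNPM peaks lay 6092 and 10281 bp upstream in introns of other transcripts, the latter in an L1ME4b element. Of 10 gene names listed for small heat shock proteins, only 9 were found among those RefSeq genes. HSPB1 and HSPB6 had peaks in both lines, which leaves 1 of 9 listed names without HSPB1. At HSPB6, which encodes Hsp20, the pileup was 27.24 in LV-MEIS1 cells and 28.10 in HOXB13ko-LV-MEIS1 cells. Of 7 genes for peptides that act on feeding, CARTPT and PMCH, the precursor of melanin-concentrating hormone, had LV-MEIS1 peaks, which leaves 1 of 6 without CARTPT. The PMCH peak had a pileup of 43.27 and lay 51413 bp upstream.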

How the data were processed

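MEIS1 ChIP-seq of LV-MEIS1 and HOXB13ko-LV-MEIS1 cells was analysed from the deposited peak lists and annotations. The authors trimmed reads with Trimmomatic 0.38, removed duplicates with Picard 2.18.10, aligned to hg38 with Bowtie2 at default settings and called peaks with MACS2 2.1.2 at a q-value of 0.01, pooling immunoprecipitations and scaling each pool down to the input. Bowtie2 so run places a read with several equally good alignments at 1 of them, which bears on sites in repeats. The deposited signal is the scaled pileup at the summit. The deposited fold enrichment is its ratio to local background. The p-values and q-values of the authors are given as −log10 values. Other deposited values are base pairs to the nearest start site and the gene name, from HOMER 4.9.1.

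Sites were the annotation rows with 1 of the 5 gene names, joined to the peak list by number. Ranks were taken within each list, overlap was at least 1 bp, reads were recovered as pileup divided by the scale factor, and words were searched within 50 bp of summits in 5967 and 2046 windows, 1 window of each list being left unread. Neighbouring genes came from GENCODE release 44. Protein-coding genes with a peak were counted by gene number from the RefSeq table of assembly GRCh38.p14. No test was run, since each line has 1 pooled list. The members, gene families and words were chosen with earlier results of these data known. Genes named are the 5 genes, hosts and neighbours of their sites, relatives with a peak, peaks within 100 kb of a site and those just outside the set; NOC3L, as the nearest peak of the other list, and the genes just outside by fold enrichment fall outside that rule and were added after their values were seen. One neighbouring gene is not reported here. Alternatives were other ranks, overlaps, windows, distances and a q-value of 1e-05. Steps were tested on simulated data. Python 3.11.15, numpy 2.4.6, pandas 2.3.3, scipy 1.17.1 and matplotlib 3.10.9 were used. Depth and its intervals cover counting error only.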

Additional observations from a re-analysis of the deposited data

How the results depend on the processing

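The ranking of the strongest sites depended on the measure. Their median rank in the LV-MEIS1 list was 13.0 by pileup, 3.0 by fold enrichment and 2.0 by −log10 q-value. For the 4 of them with a counterpart, the median rank in the HOXB13ko-LV-MEIS1 list was 354.5 by pileup, 132.5 by fold enrichment and 169.0 by −log10 q-value. These measures differ by construction, since pileup alone takes no account of background. The number of LV-MEIS1 sites overlapped by the other list remained 5 with summits at most 100 bp apart, with an overlap of at least 50% of each peak and at a q-value of at most 1e-05 in both lists. The word counts depended on the window, and so did the shares over all LV-MEIS1 windows. Sites with TGACA numbered 11 within 25 bp of the summit (41.3% of the list) and 17 within 100 bp (69.05%). Those with ATAAA numbered 7 (30.2%) and 14 (59.6%), and those with TGTTTAC 1 (4.0%) and 5 (14.45%). Limiting sites to 100 kb of the start site left 16 of 23 in LV-MEIS1 cells, among them 1 of 5 for RNLS, and 6 of 7 in HOXB13ko-LV-MEIS1 cells. No paired analysis was possible because each line has 1 pooled peak list. Pooling leaves the spread between immunoprecipitations unknown, the input is shallower than either pool, and a place below the threshold has no value.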
